A study of Mus musculus with 6 samples.

Results

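The proteasome genes of mouse dysplastic organoid cells are described here across the sorted populations that the labels call TP-DSCs and DP-DSCs. Members were all gene rows whose symbol starts with Psma to Psmg followed by a digit, which took 49 of 23420 gene rows. They comprise 7 genes of the core alpha ring, 7 constitutive genes of the core beta ring, 3 immunoproteasome genes, 2 tissue-restricted core genes, 6 ATPases and 11 non-ATPase subunits of the regulatory particle, 3 chaperones that assemble the regulatory particle, 4 activators, 1 inhibitor and 4 chaperones that assemble the core. The remaining symbol, Psmc3ip, belongs to a recombination cofactor that is not a proteasome subunit and was kept as a match by name only. Polyadenylated RNA was sequenced from 3 TP-DSC and 3 DP-DSC libraries, all sorted by flow cytometry from Meta4, a single line of mouse dysplastic epithelial organoids. Beyond what the labels give, the population names are known to stand for surface marker combinations of dysplastic stem cells. The labels call the 3 samples of a population independent but name no separate culture or animal, and no treatment, time or age. The p-values therefore reflect the scatter of these libraries alone, part of which may be technical.

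The proteasome is the protease that degrades most ubiquitin-tagged proteins of the cytosol and nucleus. Its core is a barrel of alpha rings, which gate the entrance, and beta rings, which hold the catalytic sites, and a regulatory particle with an ATPase ring and a lid recognises, unfolds and feeds in the substrate. Under interferon the catalytic subunits Psmb5, Psmb6 and Psmb7 are replaced by Psmb8, Psmb9 and Psmb10, which gives the immunoproteasome, a form that favours peptides for MHC class I. Transcription of the constitutive subunits is known to be raised together by the factor Nfe2l1 when proteasome activity is short.

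The libraries held 17015581 to 31068454 gene reads in TP-DSCs and 27027919 to 32671039 in DP-DSCs. Genes with at least 1 read numbered 10571 to 10982 in TP-DSC libraries and 12504 to 14434 in DP-DSC libraries, so scarce genes were more often without reads in TP-DSCs. Epithelial markers were abundant everywhere, the 5 genes Epcam, Krt8, Krt18, Krt19 and Cdh1 summing to 7446 to 9029 CPM (each gene's reads per 1000000 gene reads of the library) in TP-DSCs and 7984 to 9758 in DP-DSCs. Of 8 immune cell markers, 7 were at 0 throughout TP-DSCs and 1 throughout DP-DSCs. Their sum ran from 0 to 17.3 CPM in TP-DSCs and from 5.91 to 48.2 CPM in DP-DSCs, nearly all of it Cd68, which is also a lysosomal gene. Ptprc, the pan-leukocyte gene, was at 0 in all libraries except DP-DSCs replicate 1, where it stood at 0.092 CPM. Of 6 fibroblast markers, the same 4 were at 0 in all 6 libraries, and the sum reached 2.9 CPM in TP-DSCs and 3.19 in DP-DSCs. Of 3 endothelial markers, 3 had no reads in TP-DSCs and 1 none in DP-DSCs, where the sum reached 1.15 CPM. The libraries carry a number, 3840 or 4140, in their names, whose meaning the labels do not give. Replicate 1 of each group is named 3840 and replicates 2 and 3 are named 4140.

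Constitutive proteasome transcripts were abundant in both populations and immunoproteasome transcripts were scarce. Members took 0.529, 0.599 and 0.57% of gene reads in TP-DSCs replicates 1, 2 and 3, and 0.485, 0.654 and 0.604% in DP-DSCs replicates 1, 2 and 3. All TP-DSC libraries lay between the lowest and the highest DP-DSC library. Summed over its 7 genes, the core alpha ring stood at 1032 ± 62.4 CPM in TP-DSCs and 1108 ± 177 CPM in DP-DSCs (SD, n = 3 each). The constitutive beta ring stood at 1077 ± 119.8 CPM in TP-DSCs and 1085 ± 116 CPM in DP-DSCs. The 6 ATPases summed to 925 ± 160.4 CPM in TP-DSCs and 923 ± 233 CPM in DP-DSCs, and the 11 non-ATPase subunits to 1843 ± 146 CPM in TP-DSCs and 1967 ± 298 CPM in DP-DSCs. The groups overlapped in each of these 4 sums. These are bulk libraries, in which fewer cells of a type and less RNA per cell cannot be told apart.

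Per length of transcript the beta ring was the most abundant class. Its genes had a median of 139 CPM per kb of the longest coding transcript in TP-DSCs and 161 in DP-DSCs. In TP-DSCs the medians were 104 for the alpha ring, 91.6 for the ATPases and 74.5 for the non-ATPase subunits, and in DP-DSCs they were 118, 92.7 and 81.8 CPM per kb for the same classes. Psmb7, a catalytic subunit, was the highest in TP-DSCs at 175 CPM per kb, and Psmb3, a beta subunit without catalytic activity, was the highest in DP-DSCs at 196 CPM per kb. Psmb5, the chymotrypsin-like catalytic subunit, was the lowest of the constitutive beta genes in both, at 85.2 CPM per kb in TP-DSCs and 59.5 in DP-DSCs. The activators had a median of 33.1 CPM per kb in TP-DSCs and 31.3 in DP-DSCs, the core chaperones 30.3 in TP-DSCs and 32.1 in DP-DSCs, and the regulatory-particle chaperones 13.5 in TP-DSCs and 14.2 in DP-DSCs. Psmb10 stood at 11.6 CPM per kb in TP-DSCs and 8.34 in DP-DSCs. The longest transcript may not be the one expressed, which affects levels per kb and not the comparison of groups.

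**Figure D1:**
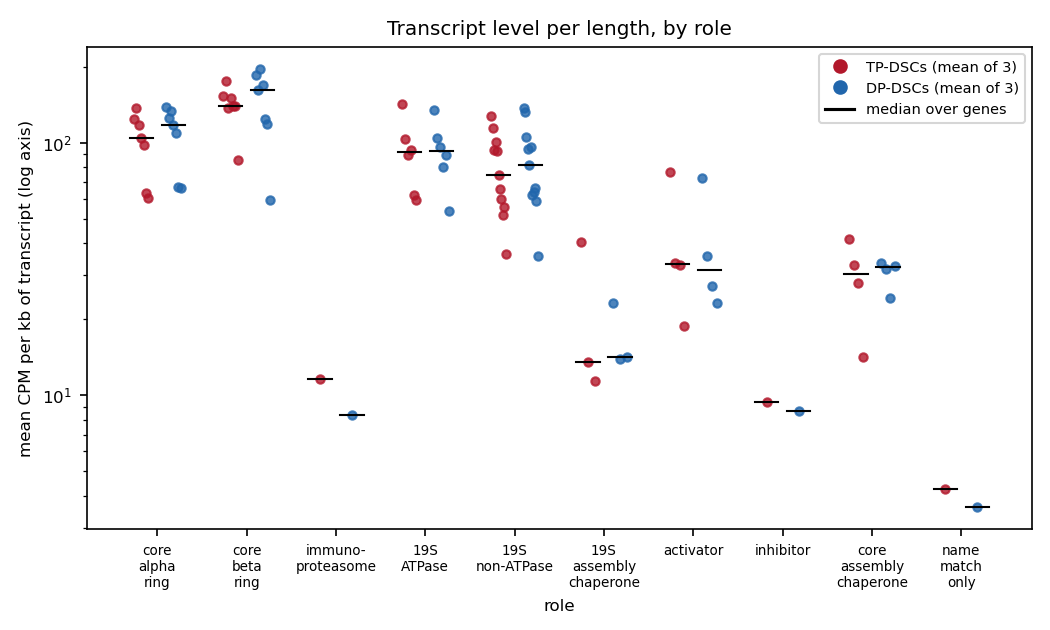
Mean CPM per kb of the longest coding transcript (log axis) for each proteasome gene, by role, in TP-DSCs and DP-DSCs (3 libraries each), where black lines are medians over the genes plotted. Core and regulatory-particle subunits sit far above Psmb10, which stood at 11.6 CPM per kb in TP-DSCs and 8.34 in DP-DSCs; the 4 genes without reads in TP-DSCs are not drawn.

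The immunoproteasome genes differed from one another. Psmb10, which takes the place of Psmb7, had reads in every library, with 21.6, 6.99 and 17.03 CPM in TP-DSCs replicates 1, 2 and 3 and 12, 8.29 and 12.5 CPM in DP-DSCs replicates 1, 2 and 3. TP-DSCs held both the highest and the lowest library, and the log2 fold change was 0.48 ± 0.69 (SE; edgeR adjusted p = 0.999, TP-DSCs over DP-DSCs). It was 0.04 without TP-DSCs replicate 1, 0.83 without TP-DSCs replicate 2 and 0.27 without DP-DSCs replicate 2. Psmb9, which takes the place of Psmb6, had 0 reads in all 3 TP-DSC libraries and 20, 43 and 9 reads in DP-DSCs replicates 1, 2 and 3, which is 0.614, 1.32 and 0.333 CPM. The DP-DSC libraries thus all lay above the TP-DSC libraries. Psmb8, which takes the place of Psmb5, had 0 reads in all 3 TP-DSC libraries and 11, 0 and 3 reads in the DP-DSC libraries, so the groups overlapped at 0.

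Against a floor of 3 reads over the 3 TP-DSC libraries, or 0.0411 CPM, Psmb9 was at least 18.4-fold lower in TP-DSCs and Psmb8 at least 3.64-fold lower. The bound for Psmb9 was 10.5-fold without TP-DSCs replicate 3, 12.1-fold without TP-DSCs replicate 1 and 11.5-fold without DP-DSCs replicate 2. That for Psmb8 rests on DP-DSCs replicate 1, which held 11 of its 14 reads, and without it the DP-DSC mean of 0.0555 CPM lay close to the floor. It was 2.09-fold without TP-DSCs replicate 3 and 2.4-fold without TP-DSCs replicate 1. Reads made by amplification are not independent molecules, so this floor covers counting error only. The folds are bounds only as far as counting error set the zeros. A zero also occurred for Psmg3 in TP-DSCs replicate 2, a gene at 27.3 CPM in TP-DSCs replicate 1. Absence at the levels of Psmb9 and Psmb8 was common in TP-DSCs. Of 1181 genes within 2-fold of the DP-DSC mean of Psmb9, 63.3% were without reads throughout TP-DSCs, as were 85.05% of 970 genes within 2-fold of that of Psmb8. Both genes fell below the abundance filter of the main fit. Fitted without a filter, edgeR gave Psmb9 an adjusted p of 0.658 (unadjusted p = 0.0269) and Psmb8 one of 0.68. For Psmb9, edgeR on genes with a mean count of at least 10 gave an adjusted p of 0.3435 (unadjusted p = 0.0116). Psmb9 reached that mean through its DP-DSC reads alone, so the values under this filter are no support for a difference. DESeq2 on all genes with a read gave Psmb9 an adjusted p of 0.436. In GENCODE M21 (GRCm38, the assembly of mm10) Psmb9 lies on chromosome 17 from 34181987 to 34187764 and overlaps the first bases of Tap1, the peptide transporter gene on the opposite strand, by 212 bases. The strand setting of the counting is not given in the sources used here, so reads of the overlap cannot be assigned with certainty. Psmb8 follows on the same chromosome from 34197721 to 34201454.

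The constitutive counterparts were present at far higher levels. Psmb5 had 71.1, 88.5 and 70.4 CPM in TP-DSCs replicates 1, 2 and 3, against 48.8, 46.5 and 65.3 CPM in DP-DSCs replicates 1, 2 and 3. All 3 TP-DSC values exceeded all 3 DP-DSC values. Psmb6, the caspase-like catalytic subunit, had 115, 105 and 139 CPM in TP-DSCs and 117, 137 and 149.8 CPM in DP-DSCs, which overlapped. Psmb7, the trypsin-like subunit, had 166, 275 and 168 CPM in TP-DSCs and 159, 218 and 184 CPM in DP-DSCs, which also overlapped. The log2 fold changes were 0.50 ± 0.24 for Psmb5, -0.19 ± 0.19 for Psmb6 and 0.10 ± 0.23 for Psmb7, and none passed in edgeR.

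**Figure D2:**
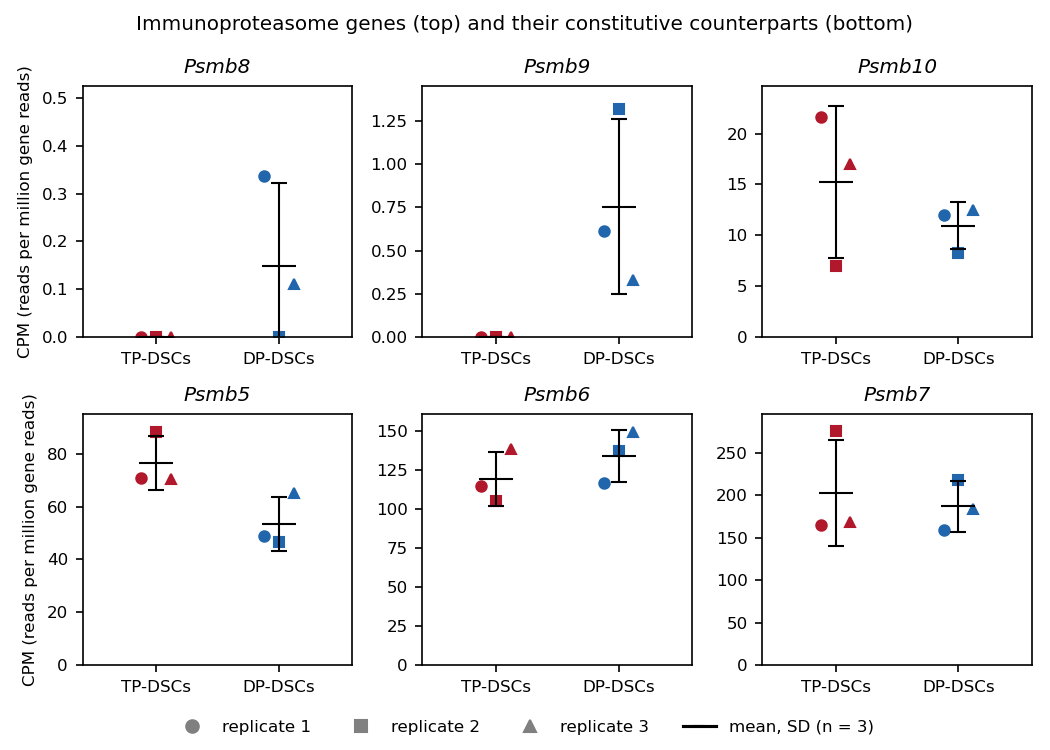
CPM in each library of the immunoproteasome genes Psmb8, Psmb9 and Psmb10 (top) above the constitutive genes Psmb5, Psmb6 and Psmb7 that they replace (bottom), with TP-DSCs left of DP-DSCs, symbols for replicates, and mean with SD (n = 3; bars end at 0 where they would cross it). Psmb8 and Psmb9 were at 0 in all TP-DSC libraries, and Psmb5 stood at 70.4 to 88.5 CPM in TP-DSCs and 46.5 to 65.3 CPM in DP-DSCs.

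The balance of each pair was compared as a log2 ratio of reads within a library, with 0.5 reads added to each count. Psmb10 to Psmb7 was -2.93, -5.29 and -3.30 in TP-DSCs and -3.72, -4.72 and -3.88 in DP-DSCs, so the means of -3.84 ± 1.27 in TP-DSCs and -4.11 ± 0.53 in DP-DSCs (SD, n = 3 each) differed by 0.26, less than the spread between replicates (exact two-sided permutation test, p = 0.7). Psmb9 to Psmb6 differed by -4.80, with all TP-DSC libraries below all DP-DSC libraries (p = 0.1 by the same exact test, which with 3 against 3 libraries can give no smaller value). Psmb8 to Psmb5 differed by -2.60 (p = 0.2, exact permutation), by -1.54 without DP-DSCs replicate 1 and by -3.77 without DP-DSCs replicate 2. Adjusted over these 3 ratios by the Benjamini-Hochberg method, the permutation p-values were 0.7, 0.3 and 0.3. Where an immunoproteasome gene had no reads the ratio is set by the added reads and by the depth of the library, and with 5 reads added the difference was -1.81 for Psmb9 to Psmb6 and -0.94 for Psmb8 to Psmb5.

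The main comparison set each proteasome gene's counts in TP-DSCs against those in DP-DSCs. Of the 49 genes, 45 passed the filter on low counts and were tested, and Psmb8, Psmb9, Psma8 and Psmb11 did not pass it. In edgeR's quasi-likelihood test adjusted over 11925 genes, 0 of the 45 passed a false discovery rate of 0.05, where 0% of all tested genes passed. At an unadjusted p under 0.05 in edgeR there was 1 of the 45, against 6.1% of all tested genes. It was higher in TP-DSCs, as were 1.43% of all tested genes at that level, and 0 of the 45 were lower, against 4.67%. DESeq2 on the same genes called 0 of the 45, against 0.804% of all genes it tested, and DESeq2 on all genes with a read called 0 of the 47 members it tested, against 1.86% of all genes. Log2 fold changes were positive for 21 and negative for 24 of the 45, with a median of -0.04, beside a median of -0.02 over all tested genes. They ran from -1.13 (Psmg3) to 0.76 (Psmd10). The groups did not overlap, with TP-DSCs above, in 2 of the 45, Psmd10 and Psmb5, against 3.87% of all tested genes. TP-DSCs lay wholly below in 0 of the 45, against 8.56% of all tested genes.

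**Figure D3:**
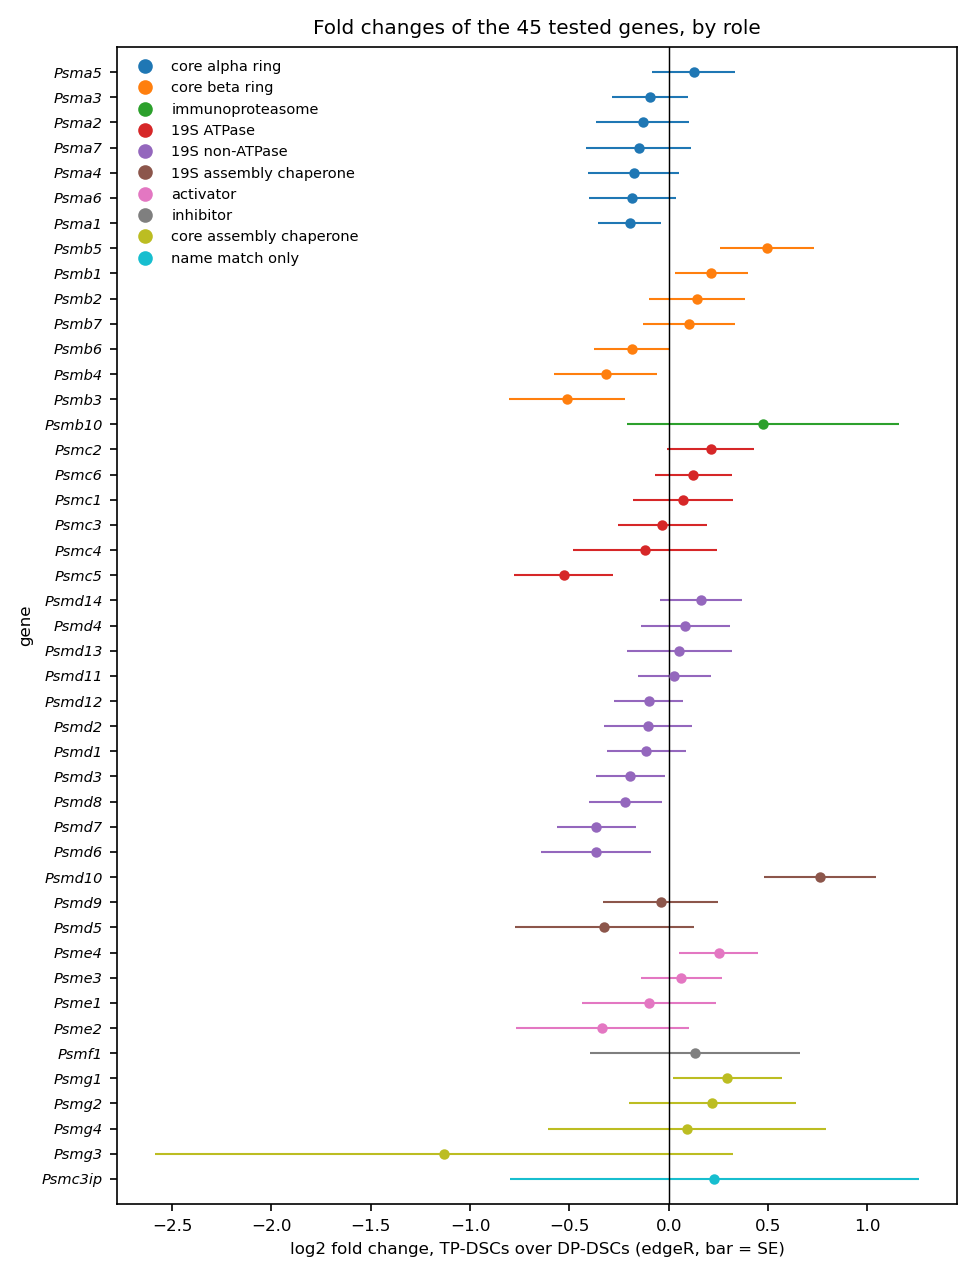
Log2 fold change of each tested proteasome gene, TP-DSCs over DP-DSCs, from edgeR (points) with its standard error (bars), coloured by role. Of the 45 genes, 21 lie right of 0 and 24 left of it, from -1.13 for Psmg3 to 0.76 for Psmd10, and none passed the threshold.

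The spread between replicates was described for the members and for genes of like abundance. The median within-group SD of log2 CPM was 0.27 over the 45 members. Over the 3226 genes whose average log2 CPM lay between 5.81 and 7.53, the members' interquartile range, it was 0.34, and over the 23 members in that range 0.26. Median absolute log2 fold changes were 0.16 for those 23 members and 0.20 for those 3226 genes. These values are descriptions and were not tested.

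Among the chaperones that assemble the base of the regulatory particle, Psmd10 had the largest log2 fold change, which did not pass the threshold. Psmd10, also known as gankyrin, binds an ATPase subunit during assembly and is known as an oncoprotein raised in liver cancer. It had 41.4, 69.9 and 61.6 CPM in TP-DSCs replicates 1, 2 and 3, against 27.7, 31.5 and 40.6 CPM in DP-DSCs replicates 1, 2 and 3. The groups did not overlap, although TP-DSCs replicate 1 lay close to DP-DSCs replicate 3. The log2 fold change was 0.76 ± 0.28 (SE), with an edgeR adjusted p of 0.617 (unadjusted p = 0.0297) and a DESeq2 adjusted p of 0.588. It was the smallest p of any member and ranked 572 among the 11925 genes. Without DP-DSCs replicate 1 the unadjusted edgeR p of Psmd10 was 0.1045. Psmd5, a chaperone of the same step, had 45.4, 82.9 and 21.98 CPM in TP-DSCs and 50.8, 74.4 and 61.6 CPM in DP-DSCs, with TP-DSCs holding the highest and the lowest library. Psmd9, the other chaperone of this group, had a log2 fold change of -0.04 ± 0.29.

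The windows before the start sites of 4 genes are printed because Psmd10 and Psmb5 were the members that lay wholly above in TP-DSCs, Psmb9 had reads in DP-DSCs alone, and Psmb10 is the immunoproteasome gene with reads throughout. Each is the 250 bases before the RefSeq start site (GRCm38.p6), 5′ to 3′ on the gene's strand, with capitals marking matches to the motifs named next.
Psmb5, chr14:54617996-54618245, minus strand: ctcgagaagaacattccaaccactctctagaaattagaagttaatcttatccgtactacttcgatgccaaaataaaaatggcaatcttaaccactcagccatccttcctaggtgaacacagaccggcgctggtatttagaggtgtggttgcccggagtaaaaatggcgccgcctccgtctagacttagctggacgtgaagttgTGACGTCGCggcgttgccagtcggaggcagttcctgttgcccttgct
Psmd10, chrX:140956712-140956961, minus strand: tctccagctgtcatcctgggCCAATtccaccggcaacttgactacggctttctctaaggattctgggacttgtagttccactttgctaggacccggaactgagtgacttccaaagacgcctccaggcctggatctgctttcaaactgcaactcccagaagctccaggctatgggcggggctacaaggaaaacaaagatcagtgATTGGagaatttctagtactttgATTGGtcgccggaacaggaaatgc
Psmb9, chr17:34187331-34187580, minus strand: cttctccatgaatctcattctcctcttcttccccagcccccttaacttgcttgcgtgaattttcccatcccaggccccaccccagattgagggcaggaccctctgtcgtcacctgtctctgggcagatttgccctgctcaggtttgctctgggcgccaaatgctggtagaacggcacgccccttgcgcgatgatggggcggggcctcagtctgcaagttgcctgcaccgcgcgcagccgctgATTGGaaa
Psmb10, chr8:105938393-105938642, minus strand: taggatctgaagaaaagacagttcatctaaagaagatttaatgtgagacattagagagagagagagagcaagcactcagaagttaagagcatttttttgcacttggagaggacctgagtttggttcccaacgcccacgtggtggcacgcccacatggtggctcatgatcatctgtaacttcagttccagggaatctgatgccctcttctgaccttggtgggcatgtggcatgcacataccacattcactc

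Both strands were searched for the core of the antioxidant response element TGACNNNGC, bound by Nfe2l1 and its relatives, for the core of the interferon-stimulated response element, for the interferon-gamma motif TTCNNNGAA and for CCAAT, with overlaps allowed. RefSeq windows were matched for 41 of the 49 genes, 44 windows in all. The antioxidant core was found in 5 of these 44 windows (11.4%), against 10.2% of all 32851 windows, and in Psmb5 it begins 47 bases before the start. The others with it were Psmb6, Psmd9, Psmd12 and Psmc6. CCAAT was found in 15 of 44 windows (34.1%), against 33.8% of all, and Psmd10 has it at 230, 47 and 24 bases before the start. The interferon-stimulated core was found in 3 of 44 windows (6.82%), against 2.98% of all, in Psmb3, Psmd4 and Psmd9. TTCNNNGAA was found in 2 of 44 windows (4.55%), against 7.02% of all, in Psmb8 and Psmg1. Psmb10 held none of these letters in its window. On the minus strand the Psmb9 gene of GENCODE M21 begins at 34187764, so its RefSeq window lies inside that gene. The bases before 34187764 were not searched for Psmb9. A match is a description of the letters and not a bound site.

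Within the core alpha ring, 6 of 7 genes had negative log2 fold changes and the median was -0.15. Over all tested genes 48.2% were positive and the median was -0.02. The direction of the ring differed by library name. Its median difference in log2 CPM was 0.09 in the pair named 3840 and -0.31 in the libraries named 4140. For all tested genes these differences were -0.06 and -0.16. Psma1, with the smallest p of the ring, had 132, 137 and 154 CPM in TP-DSCs, against 141, 171 and 168 CPM in DP-DSCs, which overlapped (log2 fold change -0.20 ± 0.16). Psma6 had 114, 129 and 83.8 CPM in TP-DSCs and 109, 130.2 and 129 CPM in DP-DSCs, where only TP-DSCs replicate 3 was low. Psma5 was the exception with 0.13 ± 0.21, and Psma2, Psma3, Psma4 and Psma7 had estimates from -0.18 to -0.09. Psma8, the spermatoproteasome form of an alpha subunit, and Psmb11, the beta subunit of thymic cortical epithelium, had 0 reads in all 6 libraries. By counting error alone, 3 reads over each group allow up to 0.0411 CPM in TP-DSCs and up to 0.0325 CPM in DP-DSCs.

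The constitutive beta ring had 4 positive and 3 negative log2 fold changes, with a median of 0.10, which was -0.09 without TP-DSCs replicate 2 and 0.19 without TP-DSCs replicate 3. Psmb3 lay at the low end, with 125, 68.9 and 119.7 CPM in TP-DSCs, against 114, 181 and 155 CPM in DP-DSCs. The groups overlapped through DP-DSCs replicate 1, and the log2 fold change was -0.51 ± 0.29 (edgeR adjusted p = 0.999). Psmb1, a structural beta subunit, had 268, 259 and 295 CPM in TP-DSCs and 229.9, 207 and 262 CPM in DP-DSCs (log2 fold change 0.21 ± 0.18). Psmb2 and Psmb4, also structural, had 0.14 ± 0.24 and -0.32 ± 0.26. Genes of the same ring, whose products are needed in equal number, thus had estimates from -0.51 for Psmb3 to 0.50 for Psmb5, none of them past the threshold.

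In the regulatory particle the ATPases had 3 positive and 3 negative log2 fold changes and a median of 0.02. Psmc5, an ATPase subunit, had 80.4, 63.7 and 101 CPM in TP-DSCs, against 89.2, 147.9 and 116 CPM in DP-DSCs. Only DP-DSCs replicate 1 kept the groups from separating, and the log2 fold change was -0.53 ± 0.25 (edgeR adjusted p = 0.936). Psmc2, another subunit of the ring, had 138, 154 and 209.9 CPM in TP-DSCs and 110.5, 180.1 and 139 CPM in DP-DSCs, a log2 fold change of 0.21 ± 0.22. The other ATPases had 0.12 for Psmc6, 0.07 for Psmc1, -0.03 for Psmc3 and -0.12 for Psmc4, with overlapping groups.

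The non-ATPase subunits had 4 positive and 7 negative log2 fold changes, with a median of -0.10 and a range from -0.37 to 0.16. Psmd7, a lid subunit that holds the deubiquitinase Psmd14, had 120.2, 100.1 and 133 CPM in TP-DSCs, against 129.9, 185 and 139 CPM in DP-DSCs (log2 fold change -0.37 ± 0.20). Psmd6, another lid subunit, had 56.3, 95.4 and 64.1 CPM in TP-DSCs and 62.5, 116 and 97.9 CPM in DP-DSCs (-0.37 ± 0.28). In both genes DP-DSCs replicate 1 lay within the TP-DSC range. Psmd14 itself had a log2 fold change of 0.16 ± 0.21, and Psmd2, the scaffold of the base and the most abundant member by CPM, of -0.10 ± 0.22. Psmd1, Psmd3, Psmd4, Psmd8, Psmd11, Psmd12 and Psmd13 ran from -0.22 for Psmd8 to 0.08 for Psmd4.

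Of the activators, which open the core without ATP hydrolysis, Psme4, which serves in acetyl-histone turnover, had 184, 188 and 267 CPM in TP-DSCs and 177, 163 and 187 CPM in DP-DSCs. Its groups overlapped at the edge (log2 fold change 0.25 ± 0.20). Psme2, a subunit of the interferon-inducible activator, had 12.2, 19.04 and 22.9 CPM in TP-DSCs and 19.6, 24.7 and 22.5 CPM in DP-DSCs, with TP-DSCs replicate 1 the lowest (-0.33 ± 0.44). Its partner Psme1 had -0.10 ± 0.34, and Psme3, the nuclear activator, 0.06 ± 0.20. The inhibitor Psmf1 had 44.3, 50.6 and 12.9 CPM in TP-DSCs and 25.5, 44.96 and 29.04 CPM in DP-DSCs, so TP-DSCs again held both extremes (0.13 ± 0.53).

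The chaperones of core assembly had a median within-group SD of 0.71 in log2 CPM, against 0.27 over all tested members and 0.5 over all tested genes. It ran from 0.23 for Psmg1 to 3.27 for Psmg3. These genes were less abundant than most members, so the values are not matched for abundance. Their average log2 CPM ran from 4.19 to 5.29, below the members' interquartile range of 5.81 to 7.53. Psmg3, one of the chaperones that build the alpha ring, had 680, 0 and 317 reads in TP-DSCs, which is 27.3, 0 and 10.2 CPM, against 23.4, 37.8 and 24.7 CPM in DP-DSCs. TP-DSCs replicate 2 had no read of it, while TP-DSCs replicate 1 lay within the DP-DSC range (log2 fold change -1.13 ± 1.45). The estimate was -2.55 without TP-DSCs replicate 1, -0.54 without TP-DSCs replicate 2 and -3.38 in limma-voom. Among 4560 genes within 2-fold of its DP-DSC mean, 2.06% had no reads in that library. Psmg1, a chaperone of the same process, had 41.2, 52.4 and 36.6 CPM in TP-DSCs and 32.6, 32.9 and 39.1 CPM in DP-DSCs (0.30 ± 0.28). Psmg2 and Psmg4 had 0.22 ± 0.42 and 0.09 ± 0.70. Psmc3ip, the match by name only, had 3.09, 5.47 and 7.92 CPM in TP-DSCs and 2.21, 7.56 and 4.18 CPM in DP-DSCs (0.23 ± 1.03).

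**Figure D4:**
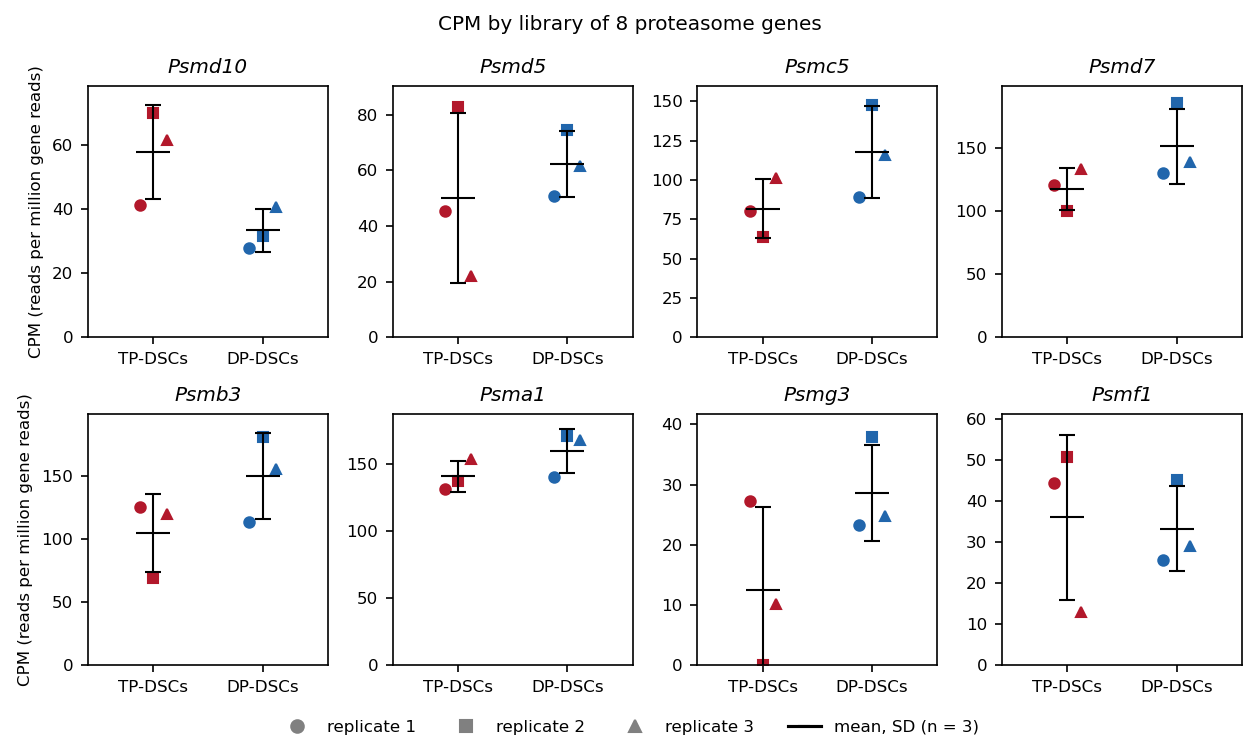
CPM in each library of 8 proteasome genes of different roles, TP-DSCs left of DP-DSCs, with symbols for replicates and mean with SD (n = 3; bars end at 0 where they would cross it). Psmd10 did not overlap between the groups (41.4 to 69.9 CPM in TP-DSCs, 27.7 to 40.6 CPM in DP-DSCs), and the other 7 genes did.

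The proteasome genes were set side by side within each library-name number. In the single pair named 3840, TP-DSCs replicate 1 lay above DP-DSCs replicate 1 in 30 of 45 members (66.7%), against 43.2% of all tested genes, and the median difference in log2 CPM was 0.19 for the members, against -0.06 for all tested genes. This pair has no replicate check. Among the libraries named 4140, both TP-DSC libraries lay below both DP-DSC libraries in 12 of 45 members (26.7%), against 22.5% of all tested genes, and above in 3 (6.67%), against 17.2%, with a median difference of -0.18 for the members, against -0.16 for all tested genes. The share below and the median difference were thus near those of all genes, while the share above was lower than theirs. In an edgeR fit of these 4 libraries alone the members' median log2 fold change was -0.17, against -0.06 over all tested genes. In that fit 0 members passed, against 0% of all tested genes. At an unadjusted p under 0.05 there were 3 of 45 members, all lower in TP-DSCs, against 12.2% of all tested genes in either direction and 9.89% lower. They were Psma7, Psma2 and Psmb3, with log2 fold changes of -0.59 ± 0.19, -0.50 ± 0.18 and -0.89 ± 0.32. Psma7 and Psma2 differed the other way in the pair named 3840, by 0.61 and 0.49, and Psmb3 by 0.17. Psmd10 differed by 0.61 in that pair and 0.84 in the libraries named 4140, and Psmb5 by 0.57 and 0.48.

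DP-DSCs replicate 1 was the library with the lowest CPM in 15 of the 45 members and the highest in 0. TP-DSCs replicate 2 was the highest in 15 and DP-DSCs replicate 2 in 14. The same counts were not made over all tested genes, so they cannot be read as particular to the members. They also use CPM without TMM scaling, and a TMM factor above 1 lowers scaled CPM. The factors were 0.949 for DP-DSCs replicate 1, 1.042 for TP-DSCs replicate 2 and 1.06 for DP-DSCs replicate 2, and 0.929 for TP-DSCs replicate 1. Relative to each gene's mean over the 6 libraries, the members' median deviation was 0.03, -0.02 and -0.09 in TP-DSCs replicates 1, 2 and 3, and -0.15, 0.16 and 0.11 in DP-DSCs replicates 1, 2 and 3, in log2 CPM. Over all tested genes the median deviation was 0.04, -0.04 and -0.05 in TP-DSCs and 0.12, 0.11 and 0.11 in DP-DSCs. DP-DSCs replicate 1 was thus low for the proteasome genes and not for the median gene. The genes were not matched for abundance here, so this contrast cannot be read as particular to the proteasome genes. Among the ring, regulatory-particle and activator classes the ATPases deviated furthest there, at -0.37, against 0.32 in DP-DSCs replicate 2. The part of the library-name number in these differences was not tested.

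**Figure D5:**
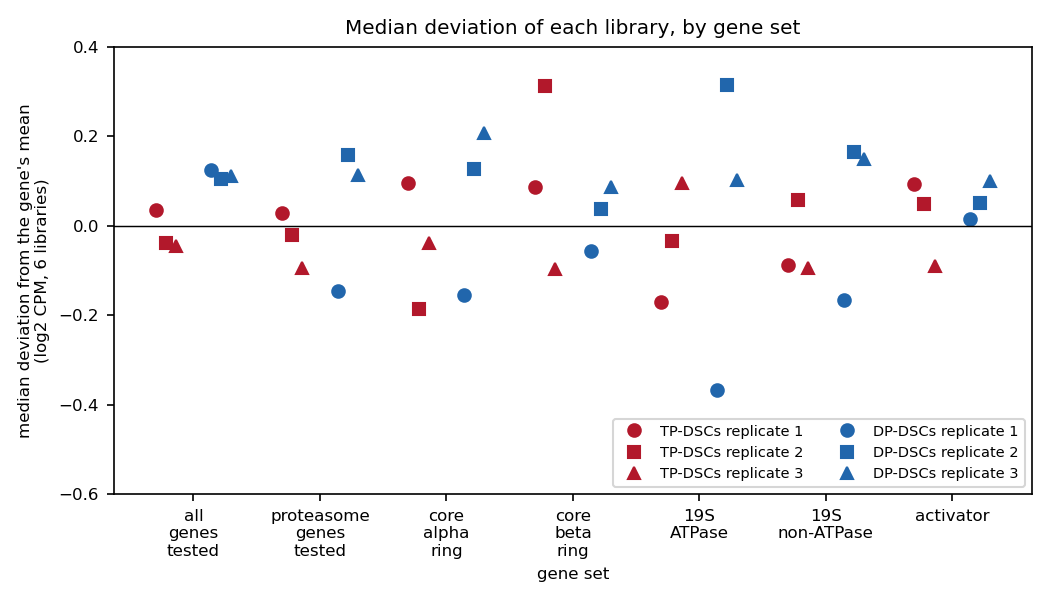
Median deviation of each gene set from the gene's mean log2 CPM over 6 libraries, for each library, with TP-DSCs (red) left of DP-DSCs (blue) and symbols for replicates. The proteasome genes stood at -0.15 in DP-DSCs replicate 1 and 0.16 in DP-DSCs replicate 2, while all tested genes stood at 0.12 and 0.11 in these libraries. The label 19S names the regulatory particle.

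Genes that work with the proteasome were compared from lists written for this purpose. Of 14 listed partner symbols 11 had a row and were tested, with 0 past the threshold in edgeR. Log2 fold changes were positive for 7 and negative for 4, with a median of 0.02. A symbol without a row does not mean that the gene was without reads. Shfm1, the smallest lid subunit, had 130.4, 138 and 114 CPM in TP-DSCs, against 98.3, 105 and 111 CPM in DP-DSCs, without overlap (log2 fold change 0.27 ± 0.18). Of the 11, 2 lay wholly above in TP-DSCs, against 3.87% of all tested genes, and 0 wholly below, against 8.56%. The other above was Zfand5, named after its values were seen, with 0.16 ± 0.16. Adrm1, the ubiquitin receptor of the base, had 85.8, 93.0 and 109 CPM in TP-DSCs and 90.3, 156 and 110.3 CPM in DP-DSCs (-0.32 ± 0.21). Uchl5, the deubiquitinase that Adrm1 binds, had 72.0, 73.3 and 89.7 CPM in TP-DSCs and 62.6, 72.2 and 59.4 CPM in DP-DSCs, overlapping only narrowly (0.26 ± 0.19).

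Of 18 genes of transcriptional control, ubiquitin supply and substrate delivery tested, 5 had positive and 13 negative log2 fold changes, the median was -0.03 and 0 passed. Ubqln4, a shuttle that carries ubiquitinated proteins to the proteasome, had 67.9, 69.3 and 56.2 CPM in TP-DSCs, against 81.6, 99.1 and 72.4 CPM in DP-DSCs, without overlap (-0.39 ± 0.21). It was the 1 of these 18 wholly below in TP-DSCs, against 8.56% of all tested genes. Wholly above were 0 of the 18, against 3.87%. Nploc4, a cofactor of the unfoldase Vcp, had 59.0, 60.2 and 104 CPM in TP-DSCs and 86.3, 116 and 88.1 CPM in DP-DSCs (-0.39 ± 0.26). Uba1, the main ubiquitin-activating enzyme, had 520.4, 449 and 524 CPM in TP-DSCs and 471, 689 and 673 CPM in DP-DSCs (-0.30 ± 0.21). Nfe2l1, named after its values were seen, had -0.02 ± 0.17.

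Of 6 genes of interferon control and of the MHC region beside Psmb8 and Psmb9, 5 were tested and 0 passed. Of the 5, 1 had a positive and 4 a negative log2 fold change. The other, Nlrc5, fell below the filter on low counts, with no reads in TP-DSCs and some in DP-DSCs, as was common for scarce genes. Stat2, an interferon signal transducer, had 20.2, 26.4 and 31.6 CPM in TP-DSCs and 43.8, 33.4 and 20.7 CPM in DP-DSCs (-0.36 ± 0.39). Tap1, whose product carries proteasome-made peptides into the endoplasmic reticulum, had 18.5, 11.3 and 0 CPM in TP-DSCs and 18.1, 20.1 and 15.2 CPM in DP-DSCs (-0.80 ± 1.57). Its partner Tap2 had 0, 6.58 and 8.18 CPM in TP-DSCs and 10.7, 8.36 and 3.81 CPM in DP-DSCs (-0.70 ± 1.71). In each of these 3 genes the groups overlapped.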

How the data were processed

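Libraries of 3 TP-DSC and 3 DP-DSC samples were made with a stranded kit for polyadenylated RNA, as the labels' protocols state. Each deposited file gives whole read counts by gene symbol, whose totals differ between libraries, so they were taken as not normalized. STAR 2.7.3a, Partek, DESeq2 3.5 and the build mm10 are named, without their roles, per the submitters' processing notes. The strand setting of the counting is not given there. Rows for reads in no gene (14.1 to 20.3% of reads) and ambiguous reads (1.09 to 1.86%) entered neither library sizes nor tests.

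CPM is a count over the sum of gene rows, without TMM scaling. Counts were fitted in R 4.3.3 with edgeR 4.0.16 over all genes: filterByExpr (minimum count 10, minimum total 15), TMM scaling, a quasi-likelihood F test of the population, without covariates, Benjamini-Hochberg adjustment over 11925 genes at 0.05. The standard error is the log2 fold change over the square root of F. Deviations, within-group SDs and differences by library name use TMM-scaled log2 CPM with a prior count of 2. The code was tested on simulated data. Replicates were numbered in accession order, which pairs no samples. Replicates differed by chi-square values of 112.2 to 306.1 per degree of freedom, so none was a duplicate. Members, roles and lists were chosen with earlier results of these data known. Named genes were the 6 exchangeable catalytic subunits, the 2 members of each role and the 5 of each direction with the smallest p, members with a library at 0, and up to 3 genes per list; other members appear by their fold change. Alternatives were other scalings, DESeq2 1.42.0, limma-voom (limma 3.58.1), other filters, the library-name number as a block or 4140 alone, other numbers of added reads, and leaving out each library; DESeq2 on all genes with a read, and the fold bounds with a library left out, were added after seeing the data.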

Additional observations from a re-analysis of the deposited data

How the results depend on the processing

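No alternative called a proteasome gene. Over all genes, edgeR and limma-voom called 0 under every alternative, DESeq2 called 93 on the filtered genes and 267 on all genes with a read. The median log2 fold change of the proteasome genes, -0.04, was -0.17 in the libraries named 4140 alone. Over all tested genes it was -0.06 in those libraries. The members' median ran from -0.15 to 0.08 when 1 library was left out. In the same way the class medians ran from -0.27 to -0.03 for the alpha ring, -0.09 to 0.19 for the beta ring, -0.17 to 0.10 for the ATPases, -0.21 to -0.03 for the non-ATPase subunits, -0.21 to 0.09 for the regulatory-particle chaperones, -0.13 to 0.13 for the activators and -0.64 to 0.44 for the core chaperones. The 20 named genes with a fit gave 339 values under alternatives, of which 329 had the same direction and the same side of the threshold, whatever their size, and 10, of 4 genes, reversed. Psmg3 ran from -2.55 to -0.54 and Psmb10 from 0.04 to 0.83 when 1 library was left out. Psmf1 reversed to -0.29 in limma-voom and -0.27 in the libraries named 4140. Leaving out 1 library gave -0.14 to 0.55 for Psmf1, -0.14 to 0.24 for Psmb7, -0.83 to 0.045 for Psmd5 and -0.11 to 0.70 for Psmc3ip. The log2 ratio of Psmb10 to Psmb7 differed by -0.19 to 0.99 in the same way. The libraries whose absence turned the sign were TP-DSCs replicates 1 and 2 and DP-DSCs replicate 1 for Psmf1, TP-DSCs replicate 2 and DP-DSCs replicate 1 for Psmb7, TP-DSCs replicate 3 for Psmd5, TP-DSCs replicate 3 and DP-DSCs replicate 1 for Psmc3ip, and TP-DSCs replicates 1 and 3 and DP-DSCs replicate 2 for the ratio. The cause was not tested. Psmd10 gave 0.63 to 0.93 and adjusted p-values of 0.197 to 1 over all alternatives, and Psmb5 0.36 to 0.66. No paired analysis was possible because the replicate numbers were given in accession order; the library-name number as a block called 0 proteasome genes. For Psmb8, Psmb9, Psma8 and Psmb11, 3 reads over the TP-DSC libraries allow 0.0411 CPM by counting error alone. The number of genes with reads did not follow depth across the groups. TP-DSCs replicate 3 had 31068454 gene reads and 10578 genes with reads, and DP-DSCs replicate 3 had 27027919 and 13957.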
